A study of Mus musculus with 6 samples.

Results

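Slc1a2, Slc1a3, Glul, Glud1 and Grm3 are 5 genes of glutamate uptake and the glutamine cycle, and were described here in spinal cord with and without Sox2 in astrocytes. They were chosen by name, as the main astrocyte glutamate transporters, the enzymes that make glutamine and break down glutamate, and a glutamate receptor of astrocytes, out of 35275 genes in the tables. All 5 passed the filter on low counts. The study deleted Sox2, a transcription factor of the neural lineage that astrocytes retain, with mGfap-Cre, a transgene in which the promoter of mouse Gfap drives the recombinase mainly in astrocytes. Whole spinal cord was sequenced as polyadenylated RNA from 3 Sox2 cKO mice (mGfap-Cre:Sox2fl/fl) and 3 Ctrl mice on a C57BL/6 background. The sample labels give the controls as mGfap-Cre:Sox2+/+ and every mouse as P90 (postnatal day 90), whereas the series description gives P80 and controls with either mGfap-Cre or Sox2fl/fl, and the study's methods give Sox2fl/fl littermates at P80. Which of these controls each library came from is not given in the sources used here.

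Astrocytes clear glutamate from the synaptic cleft with sodium-driven carriers, convert it to glutamine with glutamine synthetase, and hand the glutamine back to neurons, which make glutamate from it again. Glutamate that is not converted to glutamine can be oxidized in astrocyte mitochondria through glutamate dehydrogenase. Astrocytes also sense glutamate and its dipeptide relative N-acetylaspartylglutamate (NAAG) through the metabotropic receptor mGluR3.

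The 5 genes differ in size and structure. On GRCm38 (mm10), Slc1a2 (ENSMUSG00000005089) lies at chr2:102658659-102790784 on the plus strand and encodes GLT-1, the main forebrain and spinal glutamate carrier of astrocytes. The exons counted for Slc1a2 add up to 11595 bases, longer than 98.9% of the tested genes, and 85.2% of its longest coding transcript, of 11 exons, is noncoding. Slc1a3 (ENSMUSG00000005360, chr15:8634124-8710764, minus strand, 4435 counted bases) encodes GLAST, the other astrocyte carrier. Glul (ENSMUSG00000026473, chr1:153899944-153909723, plus strand, 2792 counted bases) encodes glutamine synthetase. Glud1 (ENSMUSG00000021794, chr14:34310727-34345265, plus strand, 3269 counted bases) encodes mitochondrial glutamate dehydrogenase. Grm3 (ENSMUSG00000003974, chr5:9485541-9725170, minus strand, 3536 counted bases) encodes mGluR3. Its transcript in the GENCODE M21 annotation has 3049 bases, of which 13.5% are noncoding, so that the counted exons were longer than this transcript. Slc1a2 and Glul each overlap a gene on the opposite strand, Gm13872 and Teddm2, which held 27 and 175 counts over all 6 libraries together.

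The RefSeq promoters of 4 of these genes (GRCm38.p6, from 250 bases before to 50 after the start) are printed. The first 3 belong to the genes that fell and the last to a gene that did not pass the test. They allow a comparison of the CAAAG sequence, 1 form of the core of the motif that SOX proteins bind. Capitals mark CAAAG or its reverse complement CTTTG, and each sequence reads along its gene.
Slc1a2, chr2:102706188-102706487, plus strand: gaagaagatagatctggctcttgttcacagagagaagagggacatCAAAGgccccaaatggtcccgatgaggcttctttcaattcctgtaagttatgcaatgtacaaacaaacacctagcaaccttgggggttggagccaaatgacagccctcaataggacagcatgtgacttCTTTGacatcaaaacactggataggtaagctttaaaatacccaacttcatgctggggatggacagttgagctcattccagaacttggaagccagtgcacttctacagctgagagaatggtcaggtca
Slc1a3, chr15:8710758-8711057, minus strand: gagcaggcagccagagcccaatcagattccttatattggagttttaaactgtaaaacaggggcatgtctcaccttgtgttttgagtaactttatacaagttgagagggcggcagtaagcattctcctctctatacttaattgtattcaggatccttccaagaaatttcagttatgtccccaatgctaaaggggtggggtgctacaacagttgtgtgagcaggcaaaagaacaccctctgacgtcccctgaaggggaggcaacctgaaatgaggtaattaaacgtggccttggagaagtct
Grm3, chr5:9725303-9725602, minus strand: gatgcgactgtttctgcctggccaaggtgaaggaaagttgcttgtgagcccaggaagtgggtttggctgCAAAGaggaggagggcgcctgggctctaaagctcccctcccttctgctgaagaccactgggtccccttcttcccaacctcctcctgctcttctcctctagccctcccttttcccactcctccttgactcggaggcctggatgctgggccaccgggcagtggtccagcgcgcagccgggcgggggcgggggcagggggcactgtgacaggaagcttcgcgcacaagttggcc
Glud1, chr14:34310477-34310776, plus strand: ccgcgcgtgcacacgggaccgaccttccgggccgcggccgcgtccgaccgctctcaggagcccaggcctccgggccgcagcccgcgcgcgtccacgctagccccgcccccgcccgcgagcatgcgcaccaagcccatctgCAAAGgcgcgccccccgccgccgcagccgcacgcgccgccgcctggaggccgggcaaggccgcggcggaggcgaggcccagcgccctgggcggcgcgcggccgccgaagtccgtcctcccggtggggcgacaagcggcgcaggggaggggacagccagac
The Slc1a2 window held CAAAG 2 times, at 205 bases before the start on the gene's strand and at 77 bases before it on the other. That RefSeq start lies 47779 bases inside the gene, downstream of its first annotated start, whose own promoter was not analysed here. The Grm3 window held CAAAG 1 time and the Slc1a3 window held none. The Glud1 window held it 1 time, and the Glul window (chr1:153899679-153899978) held none. CAAAG was found on either strand in 53.9% of 32851 RefSeq promoters of the same length, beside 3 of these 5 windows. The longer forms ACAAAG and ACAATG, present in 18.7% and 12.6% of promoters, were in none of the 5 windows. The shorter variant CAATG was not counted or marked, and the Slc1a2, Slc1a3 and Glul windows hold it. A match is a run of letters and not a measured site. From chromatin immunoprecipitation (ChIP) sequencing of adult cerebral cortex, the study reports several elements bound by SOX2 at both Slc1a2 and Slc1a3. It also reports ChIP-qPCR of SOX2 at Slc1a2 in primary astrocytes. Where those elements lie relative to these windows was not examined here.

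The libraries held 21507911 to 28392184 counts assigned to genes. Sox2 itself, the deleted gene, was read at 19.9, 14.8 and 29.5 CPM (counts divided by the library's total, scaled between libraries by TMM normalization) in Ctrl libraries 2, 4 and 6 and at 3.16, 2.69 and 2.98 in Sox2 cKO libraries 1, 3 and 5. The libraries carry their number in the tables, and which labelled replicate each number is was not given. Across 16137 tested genes, edgeR called 24.6% at an adjusted p-value below 0.05, with 12.4% lower and 12.2% higher in Sox2 cKO. Of 20 astrocyte marker genes, 6 fell (Gfap, Aqp4, Aldh1l1, Slc4a4, Slc6a11 and Acsbg1), 1 rose (S100b) and 13 did not pass. The summed level of the 20 was 12795 to 14267 CPM in Ctrl and 11156 to 12015 CPM in Sox2 cKO. Gfap alone made up a large part of this fall, with a mean of 2841 CPM in Ctrl and 1312 CPM in Sox2 cKO. S100b went from a mean of 575 CPM to 939 CPM. Of 7 oligodendrocyte precursor markers 4 fell, from a summed level of 622 to 705 CPM to one of 494 to 557 CPM, and 0 of 10 oligodendrocyte markers were called by edgeR (4 fell by DESeq2), with sums of 32859 to 36779 CPM against 33070 to 35662 CPM. Of 12 neuron markers 2 fell and 1 rose, of 10 microglia markers 2 rose, of 6 ependymal markers 1 fell, and 0 of 8 endothelial and 0 of 6 Schwann cell markers were called by edgeR or DESeq2. No marker measured in these lists was at 0. In whole tissue, fewer astrocytes and less RNA of a gene in each astrocyte cannot be told apart, and the part of these marker changes in the results below was not tested.

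The levels of the 5 genes were first compared per length, as FPKM (counts divided by the exon length and by the total of the library), and kept 1 order in all 6 libraries. Glul was the most abundant, at 848 ± 30.4 FPKM in Ctrl (SD, n = 3), and ranked 22 among the 16137 tested genes. Slc1a2 followed at 211 ± 27.6 FPKM and Glud1 at 123 ± 8.86 FPKM. Slc1a3 was read at 21.7 ± 2.96 FPKM and Grm3 at 10.4 ± 1.53 FPKM. No neighbors in this order overlapped among the Ctrl libraries. In Sox2 cKO, Slc1a2 at 135 to 157 FPKM and Glud1 at 133 to 143 FPKM overlapped between libraries. The ratio of Slc1a2 to Glud1 was 1.38, 1.74 and 2.07 in the Ctrl libraries and 1.01, 1.05 and 1.18 in the Sox2 cKO libraries. The groups did not overlap in this ratio (exact permutation test, p = 0.1, the smallest that 3 against 3 libraries can give).

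In Sox2 cKO spinal cord, 3 of the 5 genes fell in edgeR, against 12.4% of all tested genes that fell. Grm3 fell by 45.5%, Slc1a2 fell by 34.8% and Slc1a3 fell by 25.6%. Glul and Glud1 did not pass the test. For 4 of the 5, every Sox2 cKO library lay below every Ctrl library on the CPM scale, which held for 22.1% of all tested genes.

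**Figure D1:**
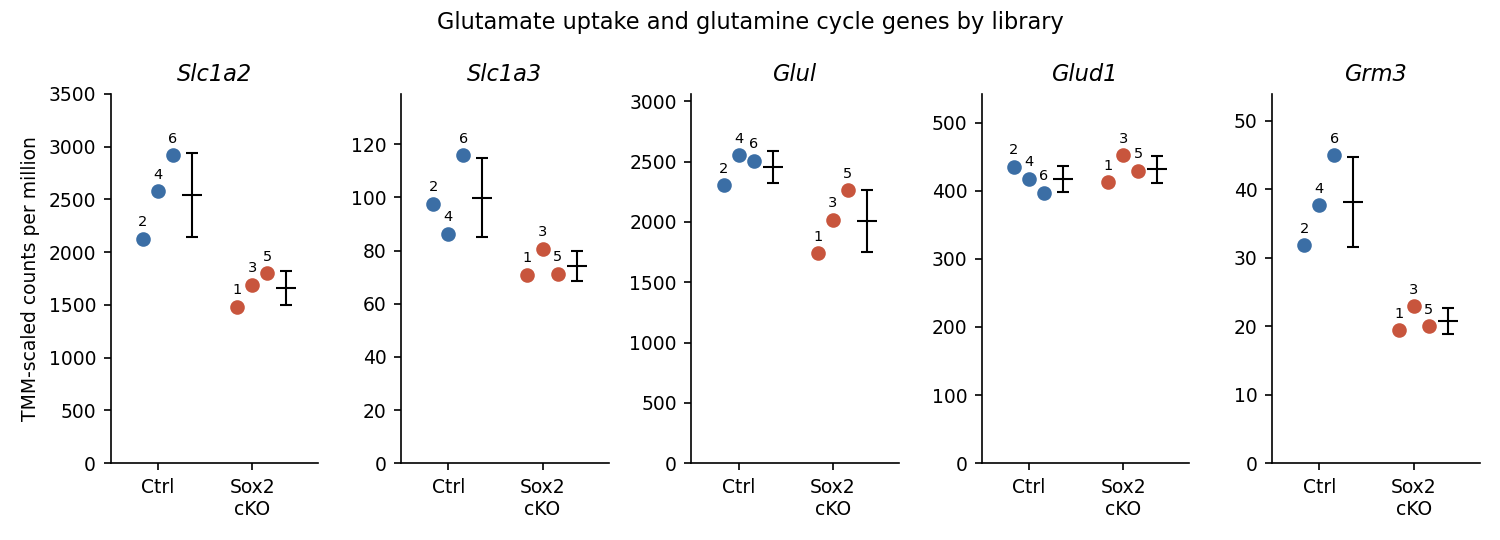
TMM-scaled CPM (vertical axes, each from 0) of Slc1a2, Slc1a3, Glul, Glud1 and Grm3 in the 3 Ctrl (blue) and 3 Sox2 cKO (red) libraries. Points are libraries with their numbers, and bars beside them give the mean ± SD. The Sox2 cKO points lie below all Ctrl points for every gene but Glud1.

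Among the transporters, Slc1a2 was read at 2127, 2578 and 2919 CPM in Ctrl libraries 2, 4 and 6 and at 1480, 1692 and 1801 CPM in Sox2 cKO libraries 1, 3 and 5. The lowest Ctrl library stood 0.24 above the highest Sox2 cKO library on the log2 scale, and Ctrl library 6 was the highest of all. The edgeR log2 fold change of Slc1a2 was -0.62, with a standard error (SE) of 0.12 and an adjusted p = 0.0136. Slc1a3 was read at 97.6, 86.3 and 116 CPM in Ctrl and at 70.9, 80.8 and 71.2 CPM in Sox2 cKO. Here the gap between the groups was smaller, at 0.10 on the log2 scale between Ctrl library 4 and Sox2 cKO library 3. By edgeR it was -0.43 on the log2 scale (SE 0.11, adjusted p = 0.0227). On the FPKM scale Slc1a3 overlapped between the groups, at 18.7 to 24.6 in Ctrl and 16.3 to 18.8 in Sox2 cKO, and limma on log2(FPKM + 1) gave it -0.31 with an adjusted p = 0.0693, where 6.2% of all genes tested that way were called lower. The proportion of the carriers overlapped between the groups. Slc1a2 stood at 8.34, 11.4 and 9.63 times the FPKM of Slc1a3 in Ctrl and at 7.99, 8.01 and 9.67 times in Sox2 cKO, and their log2 changes differed by -0.19 (exact permutation test, p = 0.3, BH-adjusted p = 0.333 over 10 pairs of the 5 genes).

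The enzymes stand on the 2 routes out of glutamate described above. Glul was read at 2302, 2554 and 2509 CPM in Ctrl and at 1742, 2017 and 2261 CPM in Sox2 cKO. All Sox2 cKO libraries were the lower ones on the CPM scale, but Sox2 cKO library 5 lay only 0.03 on the log2 scale below Ctrl library 2. On the FPKM scale Glul overlapped between the groups, at 818.9 to 879.6 in Ctrl and 660.6 to 819.1 in Sox2 cKO. The log2 fold change of Glul was -0.29 (SE 0.11, 95% interval -0.50 to -0.08) with an adjusted p = 0.0706 from edgeR, and DESeq2 called it at an adjusted p = 0.0230, as it called 15% of all genes with an adjusted p as lower. Glud1 was read at 435, 418 and 397 CPM in Ctrl and at 412, 452 and 429 CPM in Sox2 cKO, so that the groups overlapped. On the FPKM scale Glud1 did not overlap, at 114.5 to 132.2 in Ctrl and 132.9 to 142.9 in Sox2 cKO. Its log2 fold change was 0.05 (SE 0.08, adjusted p = 0.679, edgeR), with a 95% interval of -0.11 to 0.21. The ratio of Glul to Glud1 on the FPKM scale was 6.20, 7.16 and 7.40 in Ctrl and 4.95, 5.22 and 6.16 in Sox2 cKO, where the highest Sox2 cKO library nearly reached the lowest Ctrl library. The difference in log2 change between Glul and Glud1 was -0.35 (exact permutation test, p = 0.1, BH-adjusted p = 0.125 over the 10 pairs).

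Grm3, the receptor, was the least abundant of the 5 and changed by the most among them. It was read at 31.9, 37.7 and 45.0 CPM in Ctrl and at 19.4, 22.9 and 19.98 CPM in Sox2 cKO, from 442 to 932 counts per library. The lowest Ctrl library was 0.47 above the highest Sox2 cKO library on the log2 scale, the widest such gap among the 5. Its log2 fold change was -0.88 (SE 0.13, adjusted p = 0.0121, edgeR). The log2 fold change of Grm3 was lower than that of each of the other 4 genes, by 0.26 beyond Slc1a2, 0.45 beyond Slc1a3, 0.57 beyond Glul and 0.92 beyond Glud1. In each of these 4 pairs the groups did not overlap (exact permutation test, p = 0.1, BH-adjusted p = 0.125 over the 10 pairs). The FPKM of Grm3 relative to Slc1a3 was 0.409, 0.547 and 0.487 in Ctrl and 0.343, 0.356 and 0.352 in Sox2 cKO.

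**Figure D2:**
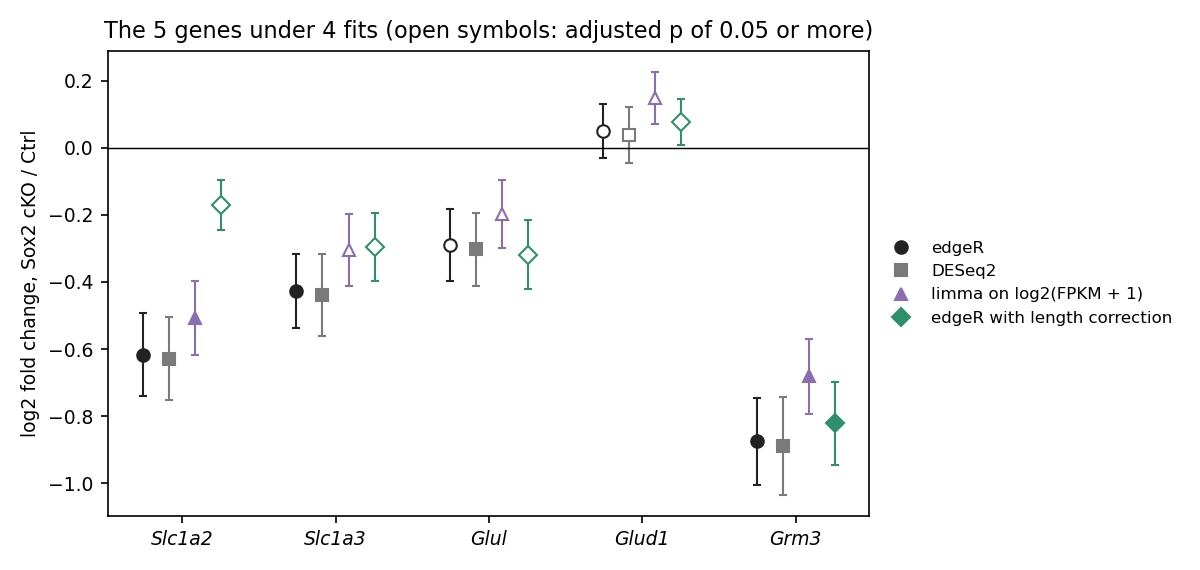
Log2 fold change of the 5 genes (vertical axis, Sox2 cKO over Ctrl, bars ± standard error) from edgeR, DESeq2, limma on log2(FPKM + 1) and edgeR with a correction for gene length. Filled symbols have an adjusted p-value below 0.05. Grm3 is filled in all 4 fits, Slc1a2 opens with the length correction (-0.17), and Glud1 is open in all 4.

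Gene length moved with the fold changes in these libraries, and the 5 genes differ in length. Counted length and log2 fold change had a rank correlation (Spearman's rho) of -0.48 over the 16137 tested genes, which are not independent replicates. Divided into 10 groups by length, the longest group, of 6351 bases or more, had a median of -0.32, and 46.4% of its genes were called lower. Slc1a2 belongs to this group, in which 9.28% of genes had a lower log2 fold change than its own -0.62. Slc1a3 was in the eighth group, with a median of -0.10, where 9.44% of genes were lower than it. Glul was in the fifth group, with a median of 0.07, where 11.3% were lower. Grm3 and Glud1 were both in the sixth group, with a median of 0.00, where 0.993% of genes were lower than Grm3 and 55.6% were lower than Glud1.

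**Figure D3:**
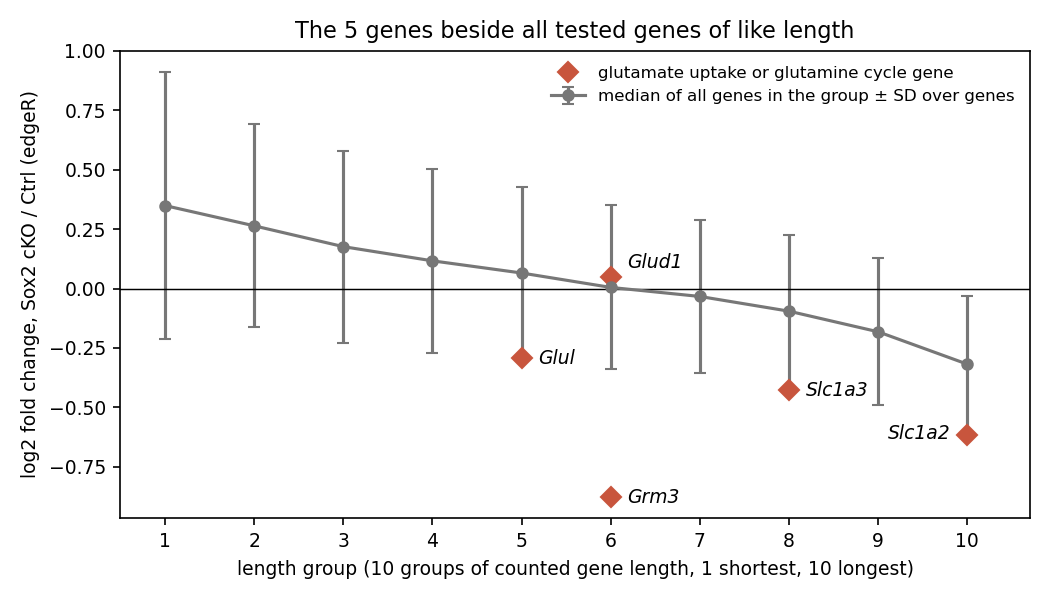
Median log2 fold change of all tested genes (gray, bars ± SD over genes) in 10 groups of counted gene length, from the shortest to the longest, with the 5 genes as red diamonds. The medians run from 0.35 to -0.32, and Grm3 stands at -0.88 in a group whose median is 0.00.

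After a correction of every library for its trend of CPM with gene length, 1 of the 5 genes was called lower, against 5.3% of all tested genes. That gene was Grm3, with a log2 fold change of -0.82 (SE 0.12, adjusted p = 0.0143, edgeR). Slc1a2 was then at -0.17 (SE 0.08, adjusted p = 0.147). Its corrected log2 CPM was 11.07, 10.98 and 11.20 in the Ctrl libraries and 10.90, 10.88 and 10.97 in the Sox2 cKO libraries, so that the groups still did not overlap. Slc1a3 was at -0.30 (adjusted p = 0.0787) and Glul at -0.32 (adjusted p = 0.0654), and Glud1 was at 0.08 (adjusted p = 0.461). The corrected log2 CPM of Slc1a3 and Glud1 overlapped between the groups, and that of Glul did not. The lead of Slc1a2 over Glul in the size of the fall did not hold. Their difference was -0.31 on the log2 scale without the correction and 0.16 with it, where the groups overlapped. The difference between Grm3 and Slc1a2 grew from 0.26 to 0.65 on the same scale. Before the correction Slc1a2 was at 11.05, 11.33 and 11.51 log2 CPM in Ctrl libraries 2, 4 and 6. In Sox2 cKO libraries 1, 3 and 5 it was at 10.53, 10.72 and 10.81. The correction thus hardly moved Ctrl library 2, lowered the other Ctrl libraries and raised every Sox2 cKO library. In its counts over many genes, Ctrl library 2 was nearer to Sox2 cKO libraries 5 and 3 than to Ctrl libraries 4 and 6. The chi-square per degree of freedom was 10.8 and 14.7, against 25.0 and 29.2. It was 28.0 for Sox2 cKO library 1. Whether the trend with length arose in the tissue or in the libraries was not tested.

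Leaving out 1 library at a time kept the sign of every edgeR value of the 5 genes. The log2 fold change ranged from -0.73 to -0.50 for Slc1a2, from -0.52 to -0.31 for Slc1a3, from -0.39 to -0.20 for Glul, from 0.01 to 0.08 for Glud1 and from -0.99 to -0.74 for Grm3. Slc1a2 and Grm3 lost the call without Ctrl library 4 (adjusted p = 0.0664 and 0.0592) and without Sox2 cKO library 1 (adjusted p = 0.0667 and 0.0656). In those 2 fits edgeR called 0.159% and 0.0485% of all tested genes in either direction, and Slc1a3 lost the call in both, as it did without Ctrl library 6 (adjusted p = 0.0772) and without Sox2 cKO library 5 (adjusted p = 0.0660). Glul gained the call without Ctrl library 2 (adjusted p = 0.0302, edgeR). In that fit edgeR called 3089 of 16590 tested genes lower, against 2008 of 16137 with all 6 libraries. With DESeq2, Slc1a2, Slc1a3 and Grm3 kept an adjusted p-value below 0.05 in all 6 such fits, and Glul in 2. The 6 fits ranged from 1094 of 24114 genes called lower (without Ctrl library 4) to 3004 of 24246 (without Ctrl library 2). Glul was called in the latter and without Sox2 cKO library 5, where 1898 of 24101 genes were called lower.

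**Figure D4:**
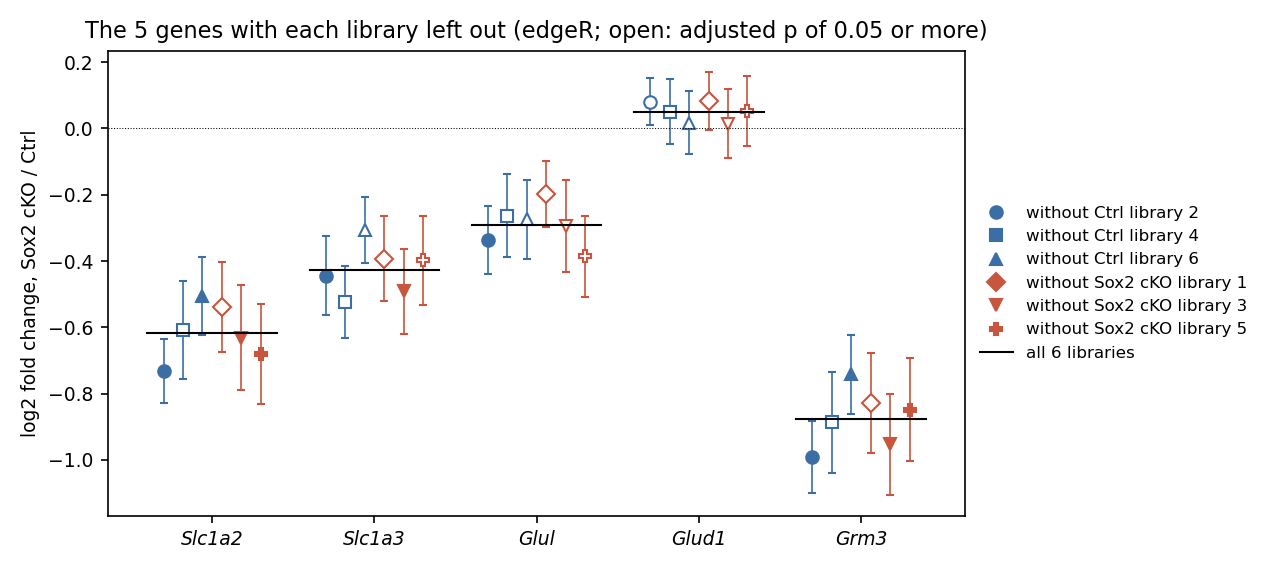
Log2 fold change of the 5 genes from edgeR (vertical axis, Sox2 cKO over Ctrl, bars ± standard error) with each of the 6 libraries left out in turn. Black lines give the value with all 6 libraries, and open symbols have an adjusted p-value of 0.05 or more. Slc1a2 and Grm3 are open without Ctrl library 4 and without Sox2 cKO library 1, and no value of the 4 genes that lay lower crosses 0.

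The 5 genes were also set against the astrocyte markers in the same library, as log2 CPM minus the mean log2 CPM of the 20 markers, which itself was 0.18 lower in Sox2 cKO with no overlap. On this scale Grm3 was lower by a difference of -0.68, from -3.56, -3.27 and -3.08 in Ctrl to -4.09, -3.82 and -4.06 in Sox2 cKO. Slc1a2 was lower by a difference of -0.43, from 2.501, 2.82 and 2.94 to 2.17, 2.39 and 2.43. Neither gene overlapped between the groups (exact permutation test, p = 0.1 for each). Slc1a3 and Glul overlapped, with differences of -0.24 (p = 0.2, exact permutation test) and -0.11 (p = 0.5, exact permutation test). Glud1, which neurons and other cells also express, was higher relative to the markers by 0.23, with no overlap (p = 0.1, exact permutation test). With the median of the markers in place of their mean, the differences were -0.34 for Grm3, -0.08 for Slc1a2, 0.11 for Slc1a3, 0.23 for Glul and 0.58 for Glud1. The median of 20 markers rests on the 2 of middle level in each library. These were not the same 2 genes in all libraries, so that its shift also compares different genes. None of these differences was corrected for gene length. With the length correction the edgeR log2 fold changes were -0.82 for Grm3, -0.17 for Slc1a2, -0.30 for Slc1a3 and -0.32 for Glul. The median over the 20 markers was then -0.21, and their median counted length was 2793.5 bases.

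The spread among mice differed by gene and group. In Ctrl, Slc1a2, Slc1a3 and Grm3 had SDs of 0.23, 0.21 and 0.25 in log2 CPM, each with Ctrl library 6 the highest, whereas Glul and Glud1 had SDs of 0.08 and 0.07. In Sox2 cKO the SD of Glul was 0.19, and Sox2 cKO library 1 was the lowest of its group for each of the 5 genes. Over the 6 libraries, Pearson's r of log2 CPM was 0.97 between Slc1a2 and Grm3, 0.91 between Slc1a2 and Glul, 0.91 between Slc1a3 and Grm3, 0.85 between Slc1a2 and Slc1a3 and -0.52 between Slc1a2 and Glud1. These values describe 6 libraries in 2 groups and include the difference between the groups.

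Among 10124 genes with a mean of at least 10 CPM, those with the pattern most like Slc1a2 over the 6 libraries were Clasp2, Dnajc18 and Slc24a4 (r of 0.999 each). For Grm3 they were Mtmr3 and Klhl42 (r of 0.999 and 0.996). For Slc1a3 they were Emc3, Cyp51 and Necap2, for Glul Wasf3 and Bace1, and for Glud1 Zfp160, Ccdc25 and Cptp. The genes closest to Slc1a2 had log2 fold changes of -0.42, -0.56 and -0.80, and those closest to Grm3 of -0.19 and -0.20, so that a like order of the libraries went with falls of different size.

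Around the 5 genes, 64 further genes of glutamate and glutamine handling were listed by role, of which 62 were tested. Of these, 9 fell, 6 rose and 47 did not pass, and their median was -0.02 on the log2 scale, beside 0.02 over all tested genes. Over all tested genes 12.4% fell and 12.2% rose, so that these 9 and 6 of 62 were near the background. With the length correction 2 fell and 5 rose, where 5.3% of all tested genes fell and 7.6% rose. Slc1a7 and Grm6 were below the filter on low counts.

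Among the other carriers at the plasma membrane, 2 of 5 tested fell. Slc7a11, the cystine and glutamate exchanger that releases glutamate from glia, had a log2 fold change of -0.45 (adjusted p = 0.0281, edgeR), and Slc1a4, a neutral amino acid carrier of the same family as GLT-1, one of -0.24 (adjusted p = 0.0479). Neither was called with the length correction (-0.06 and -0.16). The neuronal glutamate carrier Slc1a1 was at 13.3 and 14.1 FPKM with a log2 fold change of -0.01 (adjusted p = 0.944).

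Of 14 enzymes that make or use glutamate, 1 fell and 0 rose. Abat, the GABA transaminase, fell by 0.40 on the log2 scale (adjusted p = 0.0179, edgeR) and kept its call with the length correction at -0.25 (adjusted p = 0.0458). The aspartate aminotransferases Got1 and Got2 were at 0.13 and 0.00 and did not pass.

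The mitochondrial glutamate carriers moved in opposite directions. Slc25a18 (GC2), the form enriched in astrocytes, was read at a mean of 49.5 CPM in Ctrl and 37.0 CPM in Sox2 cKO, with a log2 fold change of -0.42 (adjusted p = 0.0464, edgeR). Slc25a22 (GC1) was read at 45.5 and 63.7 CPM, with one of 0.48 (adjusted p = 0.0192). Both were called in the same directions with the length correction, at -0.66 (adjusted p = 0.0190) and 0.51 (adjusted p = 0.0237). Pcx, the pyruvate carboxylase through which astrocytes refill the citric acid cycle, had a log2 fold change of -0.14 and did not pass.

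Among 6 glutamine carriers, Slc38a1, through which neurons take up glutamine, fell by 0.48 on the log2 scale (adjusted p = 0.0174, edgeR) and was not called with the length correction (-0.14). Slc38a3, the carrier by which astrocytes release glutamine, stood at 28.4 and 31.7 FPKM with a log2 fold change of 0.05 (adjusted p = 0.681). The 3 vesicular glutamate transporters were not called, Slc17a6 among them at 43.8 and 45.7 FPKM.

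Of the other metabotropic receptors, 1 of 6 tested fell. Grm5 stood at 11.3 and 9.97 FPKM in the groups (log2 fold change -0.28, adjusted p = 0.0792). Grm2, the closest relative of Grm3, was read at 0.630 and 0.670 FPKM (log2 fold change 0.00, adjusted p = 0.996), against 10.4 and 6.07 FPKM for Grm3. In the pathway of NAAG, the ligand of mGluR3, Rimkla, a NAAG synthetase, fell by 0.36 on the log2 scale (adjusted p = 0.0260, edgeR) and was not called with the length correction (-0.25, adjusted p = 0.0586). Nat8l, which makes its precursor, was at 149 and 139 FPKM (-0.20, adjusted p = 0.121).

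In the sodium pump, whose gradient drives glutamate uptake, 4 of 9 listed genes rose and 2 fell. With the length correction 3 rose and 0 fell. The beta subunit Atp1b1 rose by 0.45, and the small regulators Fxyd1, Fxyd6 and Fxyd7 rose by 0.69, 0.54 and 1.02. With the length correction Atp1b1, Fxyd6 and Fxyd7 were still called higher at 0.38, 0.38 and 0.67, and Fxyd1 (0.32, adjusted p = 0.0828) was not. Of 9 regulators of transporter trafficking, Arl6ip5, which binds a glutamate carrier, rose by 0.23 (adjusted p = 0.0455, edgeR) and was at 0.01 with the length correction.

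**Figure D5:**
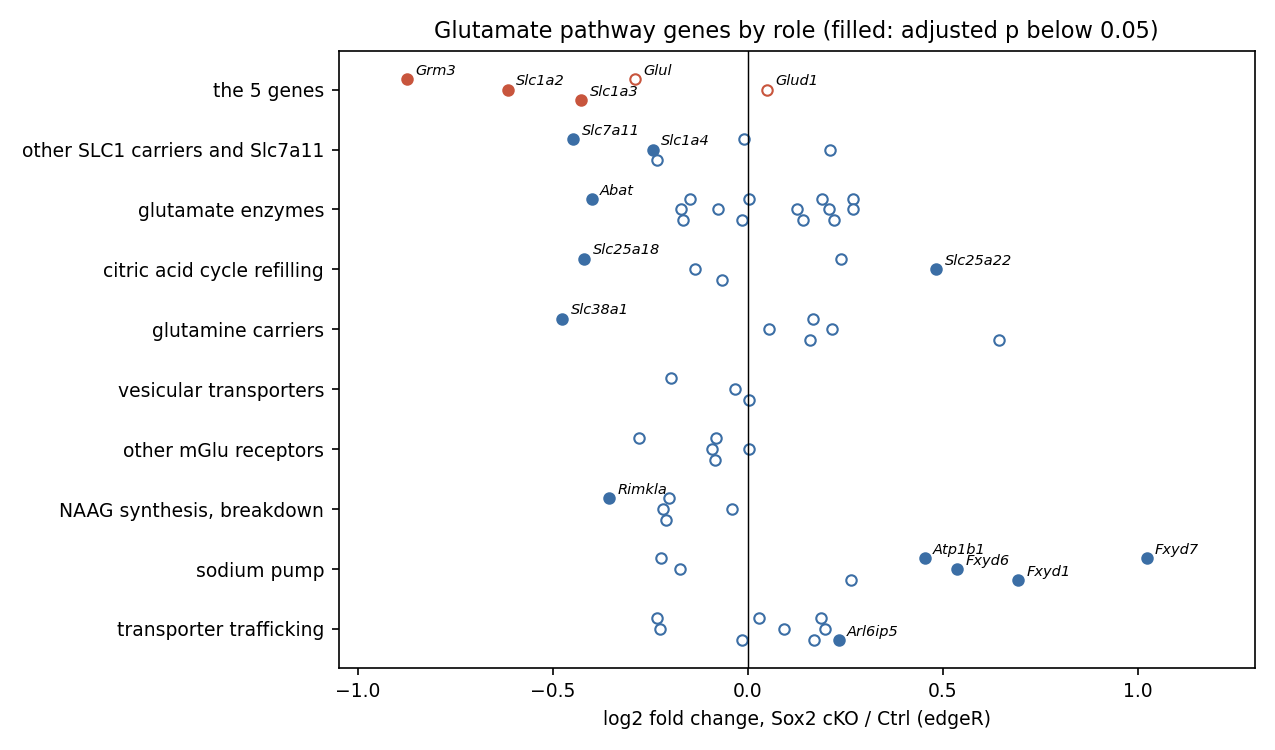
Log2 fold change (horizontal axis, Sox2 cKO over Ctrl, edgeR) of the 5 genes (red) and of further tested genes of glutamate and glutamine handling (blue), 1 point a gene, in rows by role. Filled points have an adjusted p-value below 0.05 and are named, with all 5 genes of the first row, and called genes not named in the text are left out. Grm3 is the lowest point, at -0.88, and Fxyd7 in the sodium pump row is the highest, at 1.02.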

How the data were processed

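Total RNA of whole spinal cord was enriched for polyadenylated RNA and made into directional libraries by the authors. The deposited tables hold raw read counts per Ensembl gene and FPKM that the authors made from them. The submitters' processing notes name CASAVA, STAR 2.5, HTSeq 0.6.1, DESeq 2.1.6.3 and mm10. Strand use in counting is not given in the sources used here. Counts divided by FPKM and by the library's total gave whole exon lengths for all 24442 genes with a count (tolerance 0.01 bases).

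The numbered columns match no sample title. They were put into groups by their last digit, after the mouse numbers in the study's protein blot, and group means of the counts divided by median-ratio size factors then matched the study's table of group means for 1999 of 1999 genes (relative tolerance 0.0001). The libraries come from 6 mice, and sexes were not assigned to libraries.

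Genes were tested with edgeR 4.0.16 (filterByExpr, TMM, quasi-likelihood test, Benjamini-Hochberg over 16137 genes) in R 4.3.3. Intervals are 1.96 standard errors to each side. Alternatives were DESeq2 1.42.0, other normalizations and filters, limma 3.58.1 on log2 FPKM with pseudocounts of 1 and 0.1, a lowess correction for gene length (span 0.3) and leaving out each library. The code was tested on simulated data. Named genes were the 5 genes, Sox2, the pathway genes past the threshold with up to 2 abundant others a list, and the 3 genes most like each of the 5. Grm2 and individual markers were picked with their values in view, and a few genes these rules name are not reported here. The 5 genes and all lists were chosen with earlier results of these data known. Promoters came from RefSeq (GRCm38.p6), with all 5 genes matched, and gene positions from GENCODE M21.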

Additional observations from a re-analysis of the deposited data

How the results depend on the processing

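No paired analysis was possible because no litter or pair is given for the libraries in the sources used here. The columns also carry no replicate number of the labels. Of 20 alternatives for each gene, with DESeq2, other scalings, filters, limma on FPKM, the length correction and 12 fits without 1 library (edgeR and DESeq2), the sign held for Slc1a2, Slc1a3, Glul and Grm3 in every one, and Glud1 turned in 1, to -0.0026 with DESeq2 without Sox2 cKO library 3. The length correction ended the call of Slc1a2 (-0.17) and Slc1a3 (-0.30), left 1 of the 5 genes called, lowered the genes called from 3970 to 2082, and left 2 pathway genes lower. It also moved the difference of Slc1a2 from Slc1a3 to 0.12, from Glul to 0.16, from Glud1 to -0.24 and from Grm3 to 0.65. Limma on the FPKM, with 1 or 0.1 added before taking log2, ended the call of Slc1a3 (-0.31 and -0.32), and called 4 and 4 pathway genes lower and 11 and 10 higher. With these FPKM, which carry no TMM scaling, 25.5% of all calls were lower, against 50.6% with edgeR, 41.7% with upper quartile normalization and 41.1% with the length correction. DESeq2 called Glul (-0.30). With the marker median in place of the mean, the values relative to astrocyte markers were -0.083 for Slc1a2, 0.11 for Slc1a3, 0.23 for Glul, 0.58 for Glud1 and -0.34 for Grm3. When 1 library was left out, edgeR gave -0.73 to -0.50 for Slc1a2, -0.52 to -0.31 for Slc1a3, -0.39 to -0.20 for Glul and -0.99 to -0.74 for Grm3, called 0 to 4 of the 5 genes lower, called 0 to 13 pathway genes lower and 0 to 12 higher, and called 8 genes in all (Sox2 cKO library 1 left out) to 6119 (Ctrl library 2 left out). DESeq2 then called Glul in 2 fits (-0.40 and -0.35), 5 to 15 pathway genes lower and up to 10 higher, and 1981 to 5624 genes in all, with 2290 when Ctrl library 6 was left out. Where 0 of the 5 genes were called, edgeR still gave 4945 genes without Sox2 cKO library 1 and 4758 without Ctrl library 4 an unadjusted p below 0.05, and DESeq2 called 2342 and 1981. The cause of these changes was not tested.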

Other observations

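There were 3 mice a group, and the 5 genes were read with at least 442 counts in every library. An exact permutation test of a single gene cannot go below p = 0.1 here, so each call rests on a spread that edgeR or DESeq2 shares across genes. RNA levels of a whole tissue say nothing of protein, uptake or enzyme activity. The integrity number of the RNA is given in the labels as above 6.8 for all samples, while the study's methods state a higher minimum, and neither gives it per library. Exact proportions of astrocytes were not measured in these files.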
